A study of Mus musculus with 15 samples.

Results

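Cecal RNA was measured for 7 genes that carry sugar across the gut epithelium, begin its breakdown, or run the sodium pump that powers its uptake. These were Slc5a1, Slc2a1, Slc2a2, Slc2a5, Slc50a1, Khk and Atp1b1, chosen by gene symbol, and they are 7 of the 45804 genes listed under a single symbol. The cecum came from C57BL/6 male mice, wild type, which were gavaged every 12 h for 30 days. The 7 AIMD mice (antibiotic-induced microbiome depletion) received ampicillin, vancomycin, neomycin, metronidazole and amphotericin B. The 8 vehicle-treated mice received water. The labels give an age of 20 weeks, and the study's methods an age of 12 weeks when gavage began. The comparison asked how the cecal tissue differs after this treatment, which depletes most gut bacteria. Loss of bacteria and effects of the drugs themselves cannot be told apart in this design. Each cecum was emptied and frozen whole, so epithelium, muscle and nerves were sequenced together, and fewer cells of a type and less RNA per cell cannot be told apart. Nothing in the labels ties a mouse to a cage, a litter or an hour of sacrifice.

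Absorptive cells of the gut take up glucose and galactose through SGLT1, the product of Slc5a1, which couples each sugar molecule to sodium entry from the lumen. The sodium pump (Na,K-ATPase), an enzyme of a catalytic alpha and a glycosylated beta subunit, returns that sodium to the blood side and so keeps the gradient that SGLT1 draws on. Fructose enters by facilitated diffusion through GLUT5 (Slc2a5), and ketohexokinase (Khk) phosphorylates it. Sugars leave the cell on the blood side through GLUT2 (Slc2a2), and GLUT1 (Slc2a1) supplies glucose to many cell types. SWEET1, the product of Slc50a1, is the mammalian member of a family of sugar transporters best known from plants. Most dietary sugar is absorbed in the small intestine, upstream of the cecum.

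In AIMD mice Atp1b1 RNA was higher, and Slc50a1 and Khk RNA were lower, than in vehicle-treated mice. Slc50a1 changed most, with a vehicle mean 2.12 times the AIMD mean and no overlap between the groups. Slc5a1 was higher on average and Slc2a1 lower, but neither difference passed the test. The Slc2a5 means were close, at 1.65 and 1.72, and Slc2a2 was at or near 0 in every mouse. Of the 6 genes that passed the filter on low values, 3 passed the test, 1 higher and 2 lower. Across the 11983 genes tested, 36.1% passed, 19.4% higher and 16.7% lower in AIMD mice, so changed genes were common in this tissue.

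**Figure D1:**
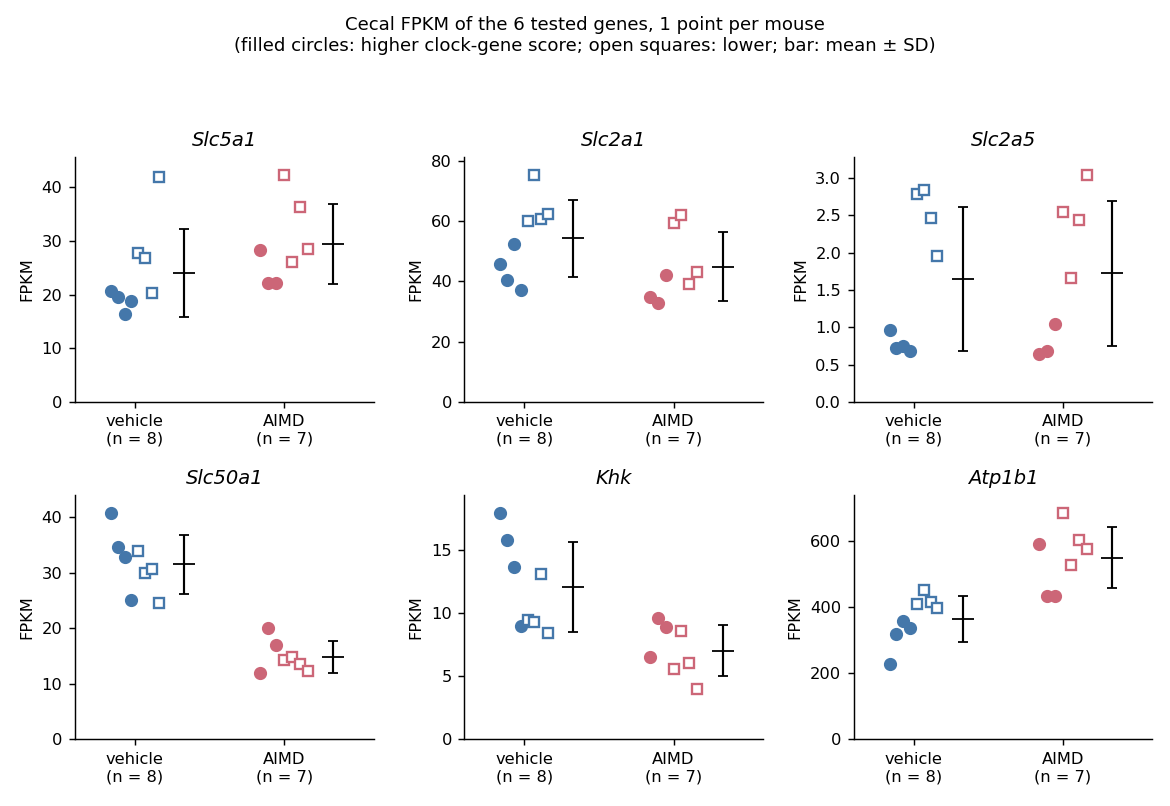
FPKM (reads per kilobase of gene scaled to library size, vertical axis) of the 6 tested genes in each vehicle-treated (blue, n = 8) and AIMD (red, n = 7) mouse, with the mean ± SD beside the points. Filled circles are mice with a higher clock-gene score and open squares mice with a lower one. The groups are apart for Slc50a1 and overlap slightly for Atp1b1 and more for Khk. For Slc2a5 the circles and squares are apart while the groups are not.

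All values below are FPKM as the authors deposited them. Fold changes are on the scale of log2(FPKM + 0.5) after scaling, from limma fitted to all tested genes, with Benjamini-Hochberg adjusted p and a threshold of 0.05. Reads on genes, recovered from the FPKM steps, ranged from 8679667 to 18108569 in AIMD mice and from 4372401 to 14405931 in vehicle-treated mice. Vehicle replicate 8 had the fewest reads and stood apart. Its summed FPKM over 6 smooth muscle markers was 3018, against 517 to 1373 in the other vehicle-treated mice and 213 to 813 in AIMD mice, and its sum over 6 markers of enteric neurons and glia was 74.9, against at most 23.8 elsewhere. Ileal Fabp6, the bile acid binding protein of the distal small intestine, reached 1041, 1062 and 1718 in vehicle replicates 5, 7 and 8 and 225 in AIMD replicate 6, and was at most 69.8 in the other mice. Large intestine markers summed to 19310 or more in every mouse, most of it Car1, and of the 8 listed, 4 (Aqp8, Muc2, Hoxd10 and Hoxa9) were lower and none higher in AIMD mice. Small intestine markers summed to 31.5 to 356 in AIMD mice and 11.0 to 1959 in vehicle-treated mice. Of the 6 tested of 12, Apoa4 and Mmp7 were higher in AIMD mice and none lower. Among all genes tested, 19.4% were higher and 16.7% lower in AIMD mice. Lct and Gata4 were the small intestine markers under 0.5 in every mouse, while Apoa1 reached 196. The mice also lay in 2 clusters by a score of circadian clock genes (mean log2 of Arntl, Npas2 and Clock minus that of 7 genes including Dbp, Per3 and Nr1d2), which oscillate in opposite phase over the day. AIMD replicates 4 to 7 and vehicle replicates 5 to 8 had scores from -0.78 to -0.06, and the remaining 3 AIMD and 4 vehicle-treated mice scores from 1.82 to 2.47. These clusters come from the data and are in no label. The study's model held time of sacrifice, and whether the clusters match it cannot be told without those times. For the 6 tested genes the levels or differences within them are given as well. With only 3 or 4 mice of each group in a cluster, groups lie apart more easily than with all mice. How many of all genes tested lie apart within a cluster was not counted, so such ranges are given as description.

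The stretch of genome before the transcription start is shown for 4 of the genes, the pair that fell (Slc50a1, Khk), the one that moved with the clock genes (Slc2a5) and the one that pairs with the pump (Slc5a1). Sequences are from RefSeq (GRCm38.p6), 5′ to 3′ along the gene's own strand, and capitals mark matches to 4 motifs searched on both strands: the E-box CACGTG bound by clock and by carbohydrate-responsive factors, the D-box TTATGNAA bound by Dbp and Tef, the HNF1 half-site GTTAAT and the GC box GGGCGG. All 7 genes had a window of 250 bases before and 50 after the start.
Slc5a1, chr5:33103969-33104218, plus strand: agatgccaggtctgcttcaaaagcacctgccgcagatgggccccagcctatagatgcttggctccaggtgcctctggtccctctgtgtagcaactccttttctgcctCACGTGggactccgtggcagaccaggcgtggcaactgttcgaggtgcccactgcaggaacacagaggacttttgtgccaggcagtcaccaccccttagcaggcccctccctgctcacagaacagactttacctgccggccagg
Slc2a5, chr4:150119094-150119282, plus strand: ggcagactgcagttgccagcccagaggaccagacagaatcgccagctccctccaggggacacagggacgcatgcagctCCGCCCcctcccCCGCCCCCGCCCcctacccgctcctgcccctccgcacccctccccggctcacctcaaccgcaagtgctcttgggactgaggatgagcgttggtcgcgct
Slc50a1, chr3:89270571-89270820, minus strand: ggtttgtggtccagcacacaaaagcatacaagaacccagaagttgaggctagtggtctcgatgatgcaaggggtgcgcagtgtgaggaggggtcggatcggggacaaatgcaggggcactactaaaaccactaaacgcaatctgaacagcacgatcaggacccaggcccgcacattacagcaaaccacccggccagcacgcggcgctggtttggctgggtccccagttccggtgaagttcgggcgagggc
Khk, chr5:30921482-30921511, plus strand: ccccgtCACGTGacaccGTTAATctggcgc
The Slc5a1 stretch holds 1 E-box, from -143 to -138 counted from the RefSeq start. The Khk stretch is 30 bases around an E-box at -71 to -66 and an HNF1 half-site at -60 to -55, and it lies inside the first exon of a longer GENCODE transcript. Slc2a5 had 3 GC boxes, cut here at the GENCODE start 61 bases before that of RefSeq, and neither an E-box nor a D-box in its window. The Slc50a1 stretch holds no complete match, but its window held GC boxes at -4 to 2, cut by the end of the stretch, and at 27 to 32. The Khk window also held a GC box at -38 to -33, outside the bases shown. Among all 32851 mouse windows, 7.15% held an E-box, 3.38% a D-box, 7.1% an HNF1 half-site and 35.7% a GC box, so such matches are common and are given as description.

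Slc5a1 (chr5:33104219-33162870, plus strand, GRCm38), the sodium-coupled uptake transporter, was read from 497 to 2025 times per mouse. Its FPKM was 16.4 at the lowest, 20.4 at the median and 41.8 at the highest in vehicle-treated mice, and 22.1, 28.2 and 42.2 in AIMD mice. In 5 of the vehicle-treated mice Slc5a1 lay below every AIMD mouse, while vehicle replicate 8 was nearly as high as the highest AIMD mouse. The means were 24.0 ± 8.20 (SD, n = 8) and 29.4 ± 7.42 (SD, n = 7). The log2 difference was 0.31 (95% interval -0.09 to 0.71, limma adjusted p = 0.209; exact two-sided permutation p = 0.146 with n of 7 and 8), which did not pass. Without vehicle replicate 8 it was 0.43 and passed, at a limma adjusted p of 0.0392. Leaving out all 4 mice of high Fabp6, which was decided on once the values were known, gave 0.44, which did not pass (limma adjusted p = 0.0705). Those 4 mice were all of lower clock-gene score and mostly vehicle-treated, so the clusters were then uneven between the groups. Within the clock clusters, Slc5a1 ran from 16.4 to 20.6 in the 4 vehicle-treated mice of higher score and from 22.1 to 28.2 in the 3 AIMD mice, without overlap. Among mice of lower score the groups overlapped, at 20.3 to 41.8 and 26.2 to 42.2.

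Slc2a5 (chr4:150119283-150144169, plus strand), the fructose transporter, was scarce, with 19 to 119 reads per mouse. Its FPKM was 0.687, 1.45 and 2.85 (lowest, median and highest) in vehicle-treated mice and 0.639, 1.66 and 3.04 in AIMD mice. The groups covered the same range. The log2 difference was 0.06, but its interval of -0.60 to 0.71 is wide, and the adjusted p of the limma fit was 0.904. It was the clock clusters that did not overlap for this gene. The 8 mice of lower score had 1.66 to 3.04 and the 7 of higher score 0.639 to 1.04. The log2 difference between the clusters was 1.17 in the AIMD group and 1.23 in the vehicle group. Only 1.09% of the genes tested had clusters that did not overlap across all 15 mice, and 0.434% were higher in the mice of lower score. The 3 genes whose pattern over the 15 mice was most like Slc2a5 among 9744 compared were the clock genes Nr1d2 (Pearson r = 0.96), Per3 (0.94) and Dbp (0.93), all of which are part of the score. Within the clusters the AIMD difference was small, at -0.05 in mice of lower score and 0.01 in mice of higher score.

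**Figure D2:**
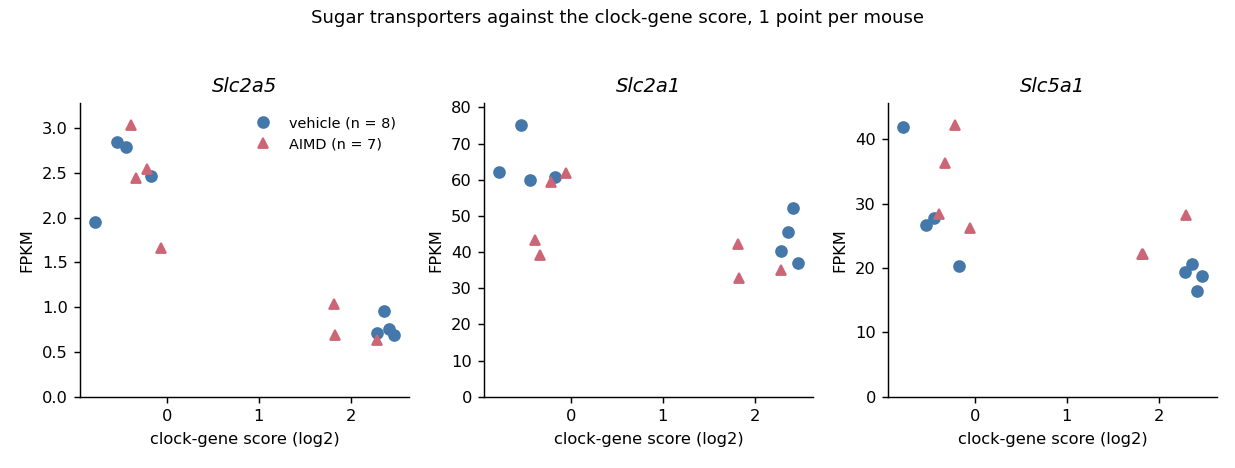
FPKM of Slc2a5, Slc2a1 and Slc5a1 (vertical axes) against the clock-gene score (log2, horizontal axis) for vehicle-treated (blue circles, n = 8) and AIMD (red triangles, n = 7) mice. The mice form a cluster of scores below 0 and another from 1.82 to 2.47. Slc2a5 is at 1.66 or more in the first and at 1.04 or less in the second, whereas the clusters overlap for Slc2a1 and Slc5a1.

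Slc2a1 (chr4:119108711-119137983, plus strand), which encodes the widespread glucose transporter GLUT1, was the most abundant facilitative transporter, making up 66.6% to 84.1% of the summed FPKM of the 12 Slc2a genes in a mouse. It was at 37.1, 56.2 and 75.2 (lowest, median and highest) in vehicle-treated mice and 32.7, 42.2 and 61.9 in AIMD mice. The groups overlapped, with 2 AIMD mice below and 2 vehicle-treated mice above all of the other group. The means of 54.2 ± 12.8 (SD, n = 8) and 44.8 ± 11.5 (SD, n = 7) differed by -0.27 on the log2 scale (95% interval -0.64 to 0.09, limma adjusted p = 0.227). A fit that also held the clock-gene score gave -0.32, which passed narrowly, at a limma adjusted p of 0.0471. A fit with the cluster as a term, tried once the values were known, gave -0.31, which did not pass (limma adjusted p = 0.0504). Within the clusters the groups overlapped, at 39.1 to 61.9 in AIMD and 60.1 to 75.2 in vehicle-treated mice of lower score and 32.7 to 42.2 and 37.1 to 52.3 in those of higher score. The log2 differences of -0.35 and -0.24 there did not pass (limma adjusted p = 0.195 and 0.358). Leaving out the 4 mice of high Fabp6, all of lower score and mostly vehicle-treated, gave -0.13 (limma adjusted p = 0.672). The clusters were then uneven between the groups. Slc2a1 was also higher in mice of lower score, by 0.45 among AIMD and 0.56 among vehicle-treated mice on the log2 scale, although the clusters overlapped. A GENCODE antisense gene, Gm12868, overlaps 105 of its 3506 exon bases, and the strand setting used in counting is not given in the sources used here.

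The ratio of the sodium-coupled to the facilitative glucose transporter, Slc5a1 over Slc2a1, used values normalized for length within each mouse. It was 0.447 ± 0.117 (SD, n = 8) in vehicle-treated mice, from 0.313 to 0.672, and 0.676 ± 0.168 (SD, n = 7) in AIMD mice, from 0.423 to 0.929. The group ranges overlapped, and the ratio, which was formed after the values were known, is given as a description. The ratio of Slc2a1 to Slc2a5 ran from 21.5 to 69.3 in vehicle-treated and from 14.2 to 54.7 in AIMD mice, over much the same range.

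Slc2a2 (chr3:28697903-28731359, plus strand), the exit transporter of small intestine and liver, had 1 read in AIMD replicate 1 and 1 in AIMD replicate 5. It had 0 in the other 13 mice, where a count of 0 (up to 3 reads) allows an FPKM of 0.027 to 0.119, depending on depth and for counting error only. Slc2a2 was also at 0 in vehicle replicates 5, 7 and 8, which held ileal Fabp6. It did not pass the filter and was not tested.

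Slc50a1 (chr3:89268246-89270570, minus strand), the SWEET1 sugar transporter, had the largest fold change of the 6 tested genes. Its FPKM was 24.5 at the lowest, 31.8 at the median and 40.7 at the highest in vehicle-treated mice, and 11.9, 14.3 and 20.1 in AIMD mice. Every AIMD mouse lay below every vehicle-treated mouse, as in 8.56% of all genes tested (either direction). The means were 31.5 ± 5.31 (SD, n = 8) and 14.9 ± 2.87 (SD, n = 7), and the gene fell by 1.06 on the log2 scale (SE 0.13, limma adjusted p = 2.2e-05). The exact permutation test gave p = 0.000155 for n of 7 and 8, the smallest that the 6435 splits can give. The groups were apart in both clock clusters. Among mice of lower score, AIMD mice had 12.3 to 14.9 and vehicle-treated mice 24.5 to 34.0. Among mice of higher score, the ranges were 11.9 to 20.1 and 25.0 to 40.7. The log2 differences there were -1.07 (limma adjusted p = 0.00268) and -1.01 (limma adjusted p = 0.0114). Reads for the gene numbered 157 to 685 per mouse.

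Khk (chr5:30921431-30931248, plus strand), ketohexokinase, was lower as well. Its FPKM was 8.39 at the lowest, 11.3 at the median and 17.9 at the highest in vehicle-treated mice, and 4.01, 6.56 and 9.60 in AIMD mice. Of the AIMD mice, 4 lay below every vehicle-treated mouse, and 4 vehicle-treated mice lay above every AIMD mouse. The means of 12.1 ± 3.57 (SD, n = 8) and 7.04 ± 2.05 (SD, n = 7) differed by a factor of 1.72. Khk fell by 0.74 on the log2 scale (SE 0.20, limma adjusted p = 0.0079; exact permutation p = 0.00544 with n of 7 and 8). Within the clock clusters the groups overlapped, and the log2 difference was -0.71 in mice of lower score (limma adjusted p = 0.0492) and -0.69 in mice of higher score, where it did not pass (limma adjusted p = 0.0659).

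None of the other enzymes of fructose breakdown that were tested passed as lower. Of the 6 considered, 5 were in the table and 3 were tested, with Khk lower, none higher, and a median log2 fold change of 0.06 against 0.01 for all genes tested. Tkfc, which phosphorylates the glyceraldehyde released from fructose, stood at 0.11, with a 95% interval of -0.16 to 0.37. Sord, which makes fructose from sorbitol, stood at 0.06 with an interval of -0.20 to 0.33, and 31.3% of its 50-base windows also occur in other genes.

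Atp1b1 (chr1:164437109-164458355, minus strand), the main beta subunit of the sodium pump, was by far the most abundant of the 7 genes, with 5146 to 31776 reads per mouse. Its FPKM was 227 at the lowest, 378 at the median and 450.2 at the highest in vehicle-treated mice, and 434, 576 and 685 in AIMD mice. Of the AIMD mice, 5 lay above every vehicle-treated mouse, and the other 2, at 434 and 434.5, lay below only vehicle replicate 6. The means were 364 ± 70.6 (SD, n = 8) and 549.8 ± 91.7 (SD, n = 7), a factor of 1.51. Atp1b1 rose by 0.60 on the log2 scale (SE 0.15, limma adjusted p = 0.00636; exact permutation p = 0.000622 with n of 7 and 8). Within each clock cluster the groups were apart, at 398 to 450.2 against 528 to 685 in mice of lower score and 227 to 359 against 434 to 590.2 in mice of higher score. The log2 differences there, from 3 or 4 mice of each group, were 0.52 (limma adjusted p = 0.054) and 0.66 (limma adjusted p = 0.0617). Neither passed. Exons of Nme7 on the opposite strand overlap 575 of the 3081 exon bases of Atp1b1. Nme7 itself had a mean FPKM of 1.67 in vehicle-treated mice and 1.97 in AIMD mice.

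Atp1b3, another beta subunit, went the other way. It fell from 55.6 ± 6.18 (SD, n = 8) to 39.1 ± 4.19 (SD, n = 7), by 0.50 on the log2 scale (limma adjusted p = 0.00177), and the groups did not overlap. The share of Atp1b1 in the summed beta subunit FPKM was 80.4% to 88.3% in vehicle-treated mice and 90.8% to 94.4% in AIMD mice. Of the 50-base windows of Atp1b3, 9.71% also occur in other genes.

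**Figure D3:**
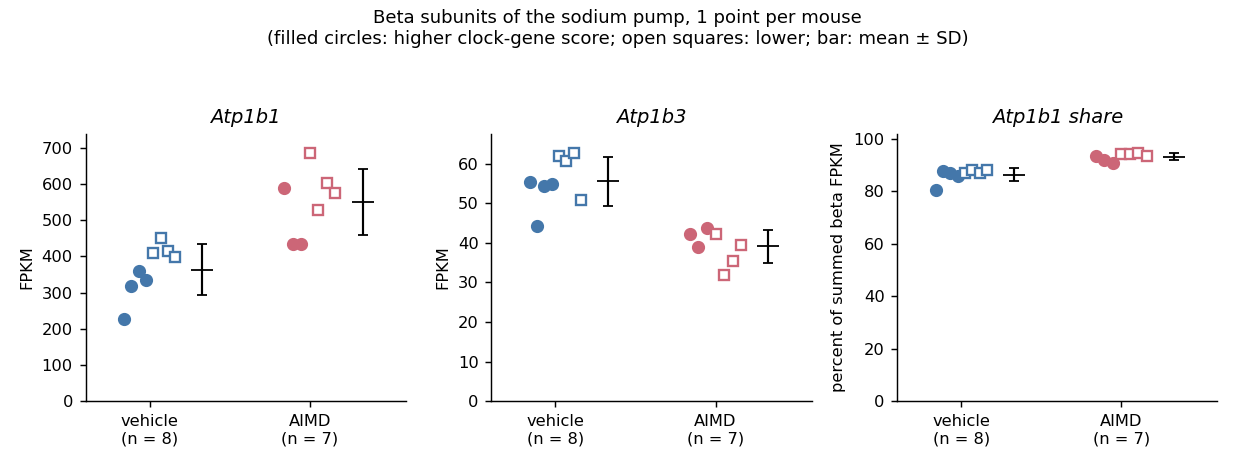
FPKM of the sodium pump beta subunits Atp1b1 and Atp1b3 and the percent of the summed beta subunit FPKM that was Atp1b1 (vertical axes) in each vehicle-treated (blue, n = 8) and AIMD (red, n = 7) mouse, with the mean ± SD. Filled circles are mice of higher and open squares mice of lower clock-gene score. Atp1b1 is higher and Atp1b3 lower in AIMD mice, and the Atp1b1 share is at most 88.3% in vehicle-treated and at least 90.8% in AIMD mice.

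Of 12 sodium pump subunits and FXYD regulators (small membrane proteins that tune the pump), 7 were tested, 2 rose and 3 fell, with a median log2 fold change of -0.47. The median over all genes tested was 0.01, and 19.4% of those genes rose and 16.7% fell. Besides Atp1b1, Fxyd3, a regulator found in gut epithelium, rose from 3.84 ± 1.81 (SD, n = 8) to 6.75 ± 2.20 (SD, n = 7), by 0.80 on the log2 scale (limma adjusted p = 0.0252). Besides Atp1b3, those that fell were Fxyd1 (phospholemman), the regulator of muscle, by 1.66, and Fxyd2, a regulator best known from kidney, by 0.54, which rests on 51 reads over all mice and passed narrowly (limma adjusted p = 0.0474). Smooth muscle markers lay lower in AIMD mice by median sum, at 638 against 1054, though the sums overlapped. Only 1 of 6 (Tagln) passed the test as lower, near the 16.7% of all genes tested that fell. All 4 of the tested markers of enteric neurons and glia, of 6 listed, were lower, with sums of 2.47 to 4.16 in AIMD mice and 4.56 to 74.9 in vehicle-treated mice. Enterocyte markers lay higher, with 4 of 7 (Vil1, Fabp2, Cdh17, Ezr) passing as higher, beside 19.4% of all genes tested. Their sums were 11060 to 17210 in AIMD mice and 5826 to 13980 in vehicle-treated mice. The part of these markers in the results for the pump and the transporters was not tested.

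Of the 13 facilitative transporters and the exporter, 8 were tested, 2 rose and 4 fell, with a median log2 fold change of -0.35. For all genes tested the median was 0.01, with 19.4% rising and 16.7% falling. Slc2a9, a urate transporter, rose by 0.74 (limma adjusted p = 0.00175), and its AIMD mice, at 1.75 to 2.75, all lay above the vehicle-treated mice, at 0.421 to 1.51. Slc2a13, a proton-coupled myo-inositol transporter, rose by 0.70 (limma adjusted p = 0.00238), from 1.66 ± 0.45 (SD, n = 8) to 3.01 ± 0.70 (SD, n = 7). Slc2a4, the insulin-responsive transporter of muscle and fat, fell by 1.42 on the log2 scale (limma adjusted p = 0.000303). It was at 1.17 to 2.85 in AIMD mice and 3.80 to 18.8 in vehicle-treated mice, the groups did not overlap, and smooth muscle markers, as above, lay in the same direction. Slc2a6 fell by 1.03 (limma adjusted p = 0.00856) and Slc2a8 narrowly by 0.42 (limma adjusted p = 0.0422), both of them transporters of intracellular membranes, at an FPKM of 3.28 or less in every mouse. Among the 8 sodium-coupled transporters, Slc5a1 made up 80.4% to 92.7% of the summed FPKM, and only it and Slc5a3, a myo-inositol transporter, were tested. Slc5a3 stood at 0.18 (95% interval -0.25 to 0.61). Slc5a9, a mannose transporter, lay under the filter, at 0.366 to 2.32 in AIMD mice and 0.088 to 0.571 in vehicle-treated mice.

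**Figure D4:**
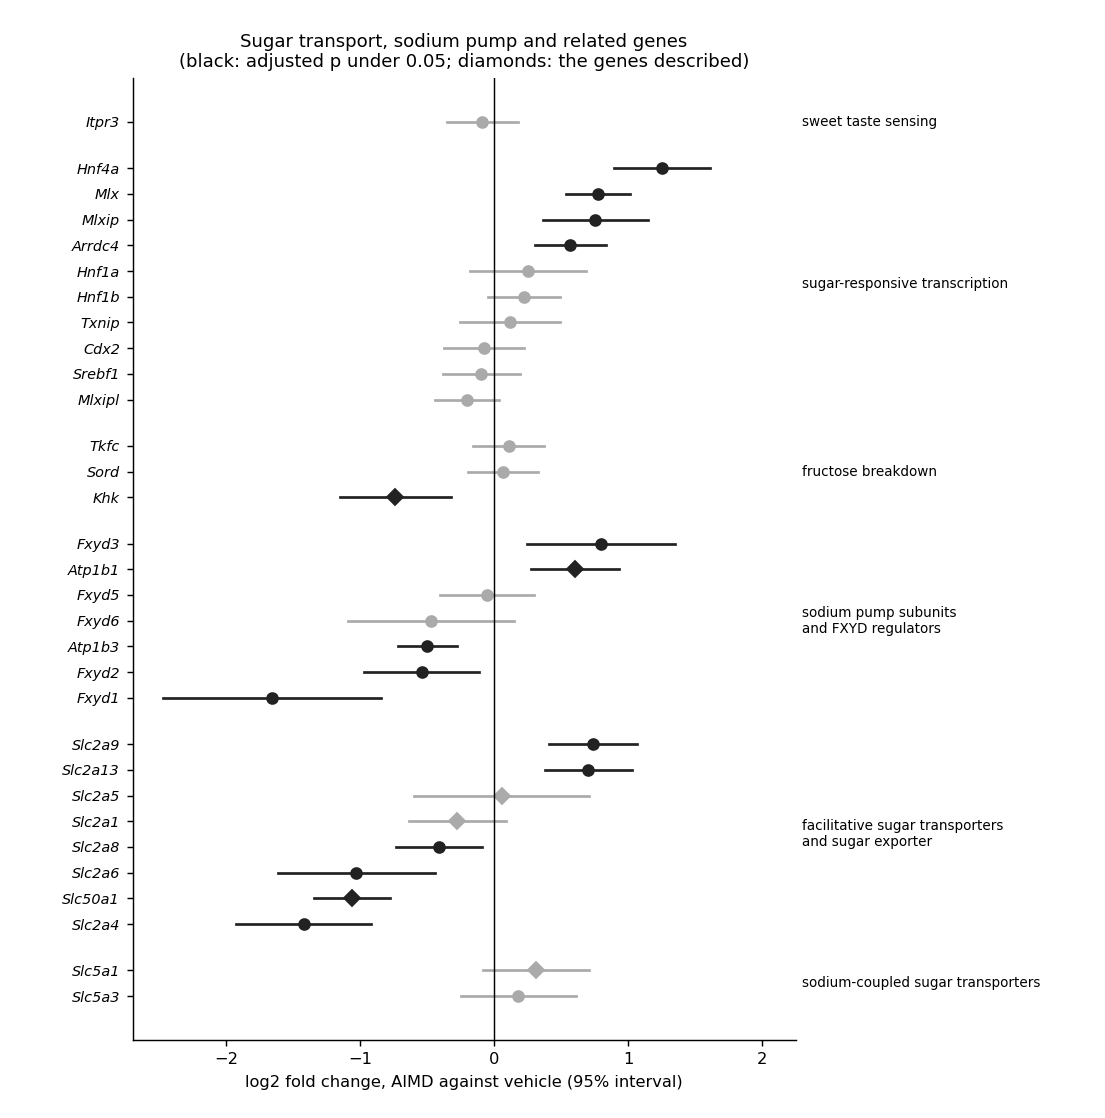
Log2 fold change of AIMD against vehicle-treated mice (horizontal axis) with its 95% interval for tested genes of 6 lists (rows), 7 AIMD against 8 vehicle-treated mice. Black marks genes with an adjusted p under 0.05 and diamonds the 6 tested genes of the text. Slc50a1 and Khk lie to the left of 0 and Atp1b1 to the right, with members of the same lists on either side.

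Of 10 transcription factors and targets that respond to sugar or set gut epithelial identity, all were tested, 4 rose and none fell. Among all genes tested, 19.4% rose and 16.7% fell. Mlx, the partner that carbohydrate-responsive factors need to bind DNA, rose by 0.77 (limma adjusted p = 9.3e-05), and its AIMD mice, at 71.4 to 104, lay above all vehicle-treated mice, at 38.9 to 61.4. Mlxip (MondoA), a glucose sensor that pairs with Mlx, rose by 0.75 (limma adjusted p = 0.00507), and its target Arrdc4 by 0.57 (limma adjusted p = 0.00241). Hnf4a, a regulator of epithelial genes, rose by 1.25 (limma adjusted p = 4.6e-05), with no overlap. Txnip, another target, stood at 0.12 (95% interval -0.25 to 0.49), and Mlxipl (ChREBP) at -0.20 (95% interval -0.44 to 0.04). Of 6 sweet taste genes, only Itpr3 was tested, at -0.09 (95% interval -0.35 to 0.17). Gnat3, the taste G protein of tuft cells, lay under the filter with 136 reads in all, at 0.464 to 1.59 in AIMD mice and 0 to 0.397 in vehicle-treated mice, without overlap and without a test. The sweet receptor genes Tas1r2, listed at 0, and Tas1r3, at 0.085 or less, were at or near 0. Of the 50-base windows of Tas1r2, 46.4% also occur in Gm21969.

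For each tested gene, the genes with the most similar pattern over the 15 mice are given as a description, since all come from the same libraries and the difference between the groups sets part of the likeness. Slc5a1 was nearest to Anks4b, a brush border scaffold (r = 0.91, and 0.92 after centring within the groups), Xpnpep2 (0.91) and Fam46a (0.89). Slc50a1 was nearest to Dcaf8 (0.97), Cyba, a subunit of NADPH oxidases (0.97), and Bri3bp (0.96). Khk was nearest to Alkbh2 (0.97), a DNA repair enzyme, Tbcb (0.96) and Acot8 (0.96). Atp1b1 was nearest to Clic5 (0.98), a chloride intracellular channel protein, Arcn1 (0.97), a coatomer subunit, and Vps54 (0.97). Slc2a1 was nearest to Pink1 (0.87), Stk35 (0.83) and Fam102a (0.83), a looser likeness than for the other genes before centring. After centring within the groups its values were 0.843, 0.813 and 0.825, and those of Slc50a1 were 0.833, 0.939 and 0.748.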

How the data were processed

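Poly-A RNA from 15 ceca was sequenced as stranded libraries with single reads of 50 bases. Per the study's methods and the submitters' processing notes, the authors aligned reads with STAR to GRCm38, counted them with featureCounts on GENCODE genes and tested with DESeq2, with time of sacrifice as a covariate, which no label gives. The authors deposited FPKM per gene symbol, 45808 rows, of which 4 with repeated symbols were left out. How counts became FPKM and the tool versions are not given in the sources used here. The study's own test could not be repeated without sacrifice times.

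Here each mouse's FPKM were scaled by the median of ratios (13594 genes), log2-transformed with a pseudocount of 0.5 and fitted with limma 3.58.1 (R 4.3.3, trend) for genes at 0.5 or more in at least 7 mice, two-sided, Benjamini-Hochberg over 11983 genes. Single values were tested by exact two-sided permutation over all 6435 splits. FPKM were whole multiples of 1 read for all but 1 of 24279 genes above 0 (24278; tolerance 0.002 reads plus a share of 2e-06), which gave the reads on genes. On simulated data with the groups' sizes, 88% of 100 genes changed by 1 log2 unit and 99% of 100 changed by 2 were recovered among 11983. Gene positions are from GENCODE M21. By the study's methods several mice shared a cage, and no label says which mice did. The p-values take each mouse as independent and measure the spread between these mice, and an effect of cage could not be separated. Genes and lists were chosen with earlier results of these data known. Named genes were the 7 members, the genes of the lists, and the 3 genes with the highest r to each member at a mean FPKM of at least 1. Alternatives were other scalings (as deposited, TMM, quantile), pseudocounts, filters, variance models, limma voom on recovered reads, a replicate block, the clock-gene score, and each mouse left out. Some genes of the lists are not reported here and are left out of the lists' counts.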

Additional observations from a re-analysis of the deposited data

Results flagged for a closer look

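Slc5a1 in vehicle replicate 8, at an FPKM of 41.8, lay far above the other vehicle-treated mice, of which the next was at 27.8. The gap made up 0.55 of the group's whole range, above the 95% critical value of Dixon's test for 8 samples. It was 1 of 12 gene and group combinations checked, and chance flags about 1 in 20. The same mouse had the highest sums of smooth muscle (3018), neuron and glia (74.9) and small intestine markers (1959). Its enterocyte marker sum was 10510, within the vehicle range of 5826 to 13980. The part of these markers in the Slc5a1 value was not tested.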

How the results depend on the processing

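Slc50a1 kept its direction and its side of the threshold under all 31 alternatives, and Khk and Atp1b1 under all but 1 and 2. Within the clock cluster of higher score the differences were -0.69 for Khk and 0.66 for Atp1b1, and within that of lower score 0.52 for Atp1b1, none past the threshold, in fits of 7 or 8 mice. Slc2a1 passed when the clock-gene score was a covariate (-0.32). Slc5a1 passed with the replicate block (0.43, adjusted p = 0.0305) and without vehicle replicate 8 (0.43). Mice of the same number in both groups are different animals, with correlations of -0.35 to 0.43 between them. The numbering does follow the clock clusters, with replicates 1 to 3 of higher and 5 to 7 of lower score in both groups. The block therefore shares much of its split with the cluster. The block changed no other call among the members. Slc2a5, which never passed, changed sign with the clock-gene score (-0.056), the clock cluster (-0.030, a term chosen after seeing the data) and within the cluster of lower score (-0.051). With 1 mouse left out at a time, the log2 differences were -0.077 to 0.195 for Slc2a5, 0.23 to 0.43 for Slc5a1, -0.36 to -0.20 for Slc2a1, -1.14 to -1.01 for Slc50a1, -0.82 to -0.62 for Khk and 0.51 to 0.66 for Atp1b1. Of the list genes, 8 rose and 8 fell, beside 19.4% and 16.7% of all genes tested. Those falling were 6 or 7 when any 1 mouse was left out and 6 with the replicate block. They were 7 with TMM, quantile scaling, voom, no filter or a pseudocount of 0.1, and 5 with a filter at an FPKM of 1, where fewer genes were tested. The standard error of Slc2a5 was 0.31, and 0.12 with the clock-gene score in the fit. Depth limits Slc2a2, at 0 or 1 reads per mouse. Causes were not tested otherwise.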

Other observations

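Among the genes of the lists, Cdx2, a transcription factor that sets intestinal identity, also had clock clusters that did not overlap. It was at an FPKM of 131 to 158 in the 8 mice of lower score and 172 to 222 in the 7 of higher score, the opposite order to Slc2a5, and 0.659% of the genes tested were lower in this way. Its AIMD and vehicle means were 164 ± 25.8 (SD, n = 7) and 174 ± 34.8 (SD, n = 8), a log2 difference of -0.08 (95% interval -0.38 to 0.22). The clusters were defined from these mice, so no test is given. Leaving out the 4 mice with an FPKM of Fabp6 of at least 100, chosen after the data were seen, left 6 AIMD and 5 vehicle-treated mice. In these the differences were -1.10 for Slc50a1, -0.83 for Khk and 0.69 for Atp1b1, all past the threshold. They were 0.44 for Slc5a1, -0.13 for Slc2a1 and 0.30 for Slc2a5, none of them past it. The mice left out were all of lower clock-gene score, and vehicle replicate 6 was then the only vehicle-treated mouse of lower score. Slc5a1, Slc2a1 and Slc2a5 ran higher in mice of lower score, so for them this step changed Fabp6 and the balance of clusters together. AIMD replicates 4, 5 and 7 and vehicle replicate 6 were of lower score with Fabp6 of at most 12.5. Their Slc2a5 was 2.54, 1.66, 3.04 and 2.85. In the 4 mice left out it was 1.95 to 2.79, and in mice of higher score at most 1.04. The part of Fabp6 and of the cluster was not tested.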
